A study of Mus musculus with 12 samples.

Results

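T cell receptor (TCR) sequences of the tumor and of the tumor-draining lymph node (tdLN) of control IgG mice were set side by side, to see which clonotypes of the tumor were also listed in the tdLN, how far up the tdLN ranking they stood, and how their V and J regions and CDR3 lengths compared with those of the other tumor clonotypes. The 2 libraries were picked by tissue and treatment from the 12 of the series. A clonotype is the combination of a chain (TRBC for beta, TRAC for alpha, TRGC for gamma, TRDC for delta), a V region, a J region and the bases of CDR3, and it was called shared when the tdLN library listed the same combination with at least 1 unique molecular identifier (UMI) read at least 3 times. The tumor library listed 19355 clonotypes and the tdLN library 121125, out of 1502315 over all 12 libraries. Both groups were wild-type C57BL/6J mice with MTCQ1-2 tumors, a syngeneic head and neck carcinoma line, and both received control IgG at 30 mg/kg, by the labels, in 3 doses 3 days apart. RNA of 3 mice was pooled for each library after selection of CD8+ T cells on magnetic beads, a step the protocol gives for lymph nodes too although the sample names of the tdLN libraries do not repeat it. The tdLN libraries of the other treatments of the study (IL-10-Fc, αCSF1R, and BF10, a fusion of both) came from other mice and served as a reference level of sharing. They differ from the control IgG tdLN in treatment as well as in mice. Each group is 1 library (n = 1), so there is no replicate spread and no test, and every interval below is a 95% interval that covers counting error only.

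A T cell clone carries the TCR that its ancestor assembled in the thymus by joining V, D and J segments for the beta chain, or V and J segments for the alpha chain. Bases are trimmed and added at the joints, so CDR3, which spans the joint and touches the peptide on MHC, is nearly a barcode of the clone. Short joints with few added bases arise again and again in different animals, and such receptors are called public. CD8+ T cells meet tumor antigens first in the draining node, divide there and reach the tumor through the blood, where they may divide further.

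The tumor library held 192168 UMIs, with 104036 TRBC UMIs in 9466 clonotypes and 79926 TRAC UMIs in 9468. The tdLN library held 238672, with 124488 TRBC UMIs in 71579 clonotypes and 101598 TRAC UMIs in 46550. Only TCR transcripts were sequenced, so the CD8 genes themselves could not be checked in these libraries. TRGC and TRDC chains were listed in both, with 6555 TRGC and 1651 TRDC UMIs in the tumor, and are described at the end. Whether the gamma chains came from gamma delta T cells could not be checked either. Since the RNA was pooled, a tumor clonotype and its tdLN counterpart cannot be traced to the same mouse. A UMI counts a cDNA molecule, so many cells and much TCR RNA per cell cannot be told apart.

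The clonotypes on which the comparison turns are printed here, named TB, TA and TD for the tumor's beta, alpha and delta chains in order of their tumor UMIs and NB for beta chains that led the tdLN, with their CDR3, from the codon of the conserved cysteine to that of the last phenylalanine. They are 8 of the 10 TRBC clonotypes with the most tumor UMIs, 5 that the tdLN listed (the first lines) and 3 that it did not list (the next), a pair that stood high in the tdLN (the next 2), the leading TRAC clonotypes (the next 3) and the leading TRDC clonotype (the last). Lower case marks bases that the germline V region gives from the left or the J region from the right, and capitals mark the bases between, which come from a D segment or from trimming and addition.
TB1 (Trbv5, Trbj1-2): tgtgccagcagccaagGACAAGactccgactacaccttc
TB2 (Trbv19, Trbj2-1): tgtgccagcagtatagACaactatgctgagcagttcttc
TB3 (Trbv19, Trbj2-7): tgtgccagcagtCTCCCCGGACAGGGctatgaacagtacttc
TB8 (Trbv13-1, Trbj2-5): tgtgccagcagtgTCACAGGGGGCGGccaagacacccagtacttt
TB10 (Trbv12-1, Trbj1-1): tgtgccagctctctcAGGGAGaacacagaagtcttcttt
TB4 (Trbv12-1, Trbj1-6): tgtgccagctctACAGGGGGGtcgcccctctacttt
TB7 (Trbv26, Trbj2-7): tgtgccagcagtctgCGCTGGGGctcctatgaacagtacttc
TB9 (Trbv13-2, Trbj2-4): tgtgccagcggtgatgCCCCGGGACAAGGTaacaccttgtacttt
NB1 (Trbv17, Trbj2-7): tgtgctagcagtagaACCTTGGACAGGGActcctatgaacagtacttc
NB2 (Trbv13-3, Trbj2-4): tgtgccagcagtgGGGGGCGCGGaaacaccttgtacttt
TA1 (Trav9n-3, Traj9): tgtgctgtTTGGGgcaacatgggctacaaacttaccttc
TA2 (Trav5d-4, Traj53): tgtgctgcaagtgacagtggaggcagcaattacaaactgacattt
TA3 (Trav6-4, Traj23): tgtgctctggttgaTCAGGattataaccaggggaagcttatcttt
TD1 (Trdv4, Trdj2): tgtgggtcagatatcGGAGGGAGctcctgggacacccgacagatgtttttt
The beta chain regions of the leading clonotype, Trbv5 (chr6:41062332-41062803) and Trbj1-2 (chr6:41534001-41534048), and the other named beta chain regions Trbv12-1 (chr6:41113550-41114067), Trbv17 (chr6:41163062-41163556), Trbv19 (chr6:41178375-41179048) and Trbj1-1 (chr6:41533864-41533911) lie on the plus strand of GRCm38, as do Trav9n-3 (chr14:53231433-53232102) and Traj9 (chr14:54209393-54209450) of the leading alpha chain. All are gene segments that are joined by recombination, and the V entries include the leader exon, the V exon and the intron between them.

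Of the 9466 TRBC clonotypes of the tumor, 490 were listed in the tdLN, or 5.18% (4.75% to 5.64%). These few clonotypes held 34.0% of the tumor's TRBC UMIs (33.7% to 34.3%). As deposited, the tdLN libraries of the other mice listed 4.93% (IL-10-Fc), 6% (αCSF1R) and 5.81% (BF10) of the tumor's TRBC clonotypes, which held 8.85%, 10.5% and 7.89% of its TRBC UMIs. Those libraries are deeper, with 185084, 210616 and 204079 TRBC UMIs against 124488. At 124488 UMIs each, the expected shares were 4.05%, 4.33% and 4.20% of clonotypes, with 8.32%, 7.79% and 6.2% of UMIs. By number, the control IgG tdLN thus lay within the range of the other tdLNs as deposited and above all 3 at equal depth, and by the UMIs of the clonotypes listed it was above them both ways. The reads behind the UMIs differed, since 7 reads or more backed 40.9% of TRBC UMIs in the control IgG tdLN, 35.3% with IL-10-Fc, 10.4% with αCSF1R and 8.26% with BF10, so the IL-10-Fc library is the nearest in sequencing.

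The excess lay mostly with tumor clonotypes of 10 or more UMIs. Among TRBC clonotypes with a single tumor UMI, 42 of 1974 (2.13%) were listed in the control IgG tdLN, against 2.79% to 4.10% in the other tdLNs and 2.27% to 2.98% at equal depth. Among those with 10 to 99 UMIs, 125 of 1257 (9.94%, 8.41% to 11.7%) were listed, against 6.28% with IL-10-Fc, 8.27% with αCSF1R and 6.84% with BF10. At equal depth the expected numbers for these 3 were 64.0, 76.4 and 60.8 clonotypes (5.09%, 6.08% and 4.84%). Among the 78 with 100 or more UMIs, 26 were listed, or 33.3% (23.9% to 44.4%), against 6, 4 and 4 in the other tdLNs (5.13% to 7.69%). The interval of this largest class did not overlap with those of the other tdLNs, the highest of which ended at 15.8%. With every tdLN library taken at the same 124488 TRBC UMIs, the expected share of this class was 33.3% in the control IgG tdLN, 7.60% with IL-10-Fc, 4.39% with αCSF1R and 4.43% with BF10.

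**Figure D1:**
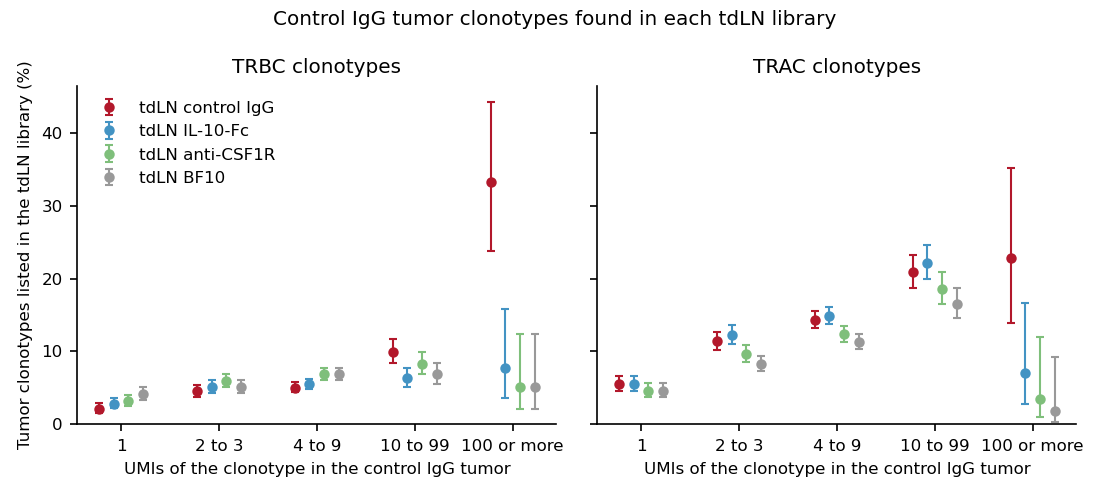
The vertical axis gives the percent of control IgG tumor clonotypes that each of the 4 tdLN libraries lists, for TRBC (left) and TRAC (right), by the UMIs of the clonotype in the tumor, with 95% Wilson intervals as bars. The libraries are drawn as deposited, at unequal depth. Up to 9 UMIs, another library lies at or above the control IgG tdLN in every class, and in the class of 100 or more UMIs the control IgG tdLN stands at 33.3% for TRBC and 22.8% for TRAC, with the others at 7.69% or less.

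Sharing with the control IgG tdLN alone shows the same contrast. Of the 78 TRBC clonotypes with 100 or more UMIs, 19 were listed in the control IgG tdLN and in no other tdLN, and together they held 42.2% of the UMIs of this class. No such clonotype was listed only in the IL-10-Fc, only in the αCSF1R or only in the BF10 tdLN, and 0 of 78 allows a share of up to 4.69% for each (Wilson interval). Over all sizes, 242 TRBC clonotypes with 23.6% of the tumor's UMIs were listed in the control IgG tdLN alone, and 168, 222 and 216 clonotypes with 1.04%, 1.42% and 1.42% of UMIs in the IL-10-Fc, αCSF1R and BF10 tdLN alone. Most tumor clonotypes, 8137 (86.0%) with 59.1% of the UMIs, were in none of the 4 tdLN libraries.

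For the alpha chain, 1193 of 9468 tumor clonotypes were listed in the tdLN, or 12.6% (11.9% to 13.3%), with 27.4% of TRAC UMIs. The other tdLNs listed 13.1% (IL-10-Fc), 10.8% (αCSF1R) and 9.69% (BF10), with 15.8%, 10.3% and 8.87% of UMIs. Depth differed here too, with 101598 TRAC UMIs in the control IgG tdLN and 137078, 65745 and 55901 in the others. At 55901 UMIs each, the expected shares of clonotypes were close, at 10.4% for control IgG and 9.55%, 9.98% and 9.69% for the others. The expected shares of UMIs were 24.3% and 12.3%, 9.67% and 8.87%. In the class of 100 or more UMIs, 13 of 57 TRAC clonotypes were listed in the control IgG tdLN (22.8%, 13.8% to 35.2%) and 4, 2 and 1 in the others. Of these, 10 were in the control IgG tdLN alone, against 1 in the IL-10-Fc tdLN alone and 0 in either other. The interval of the control IgG tdLN overlapped here with that of IL-10-Fc, whose upper end was 16.7%. With every tdLN library at the same 55901 TRAC UMIs, the expected share of this class was 19.2% in the control IgG tdLN, 4.75% with IL-10-Fc, 3.21% with αCSF1R and 1.75% with BF10. Over all sizes, a larger percent of alpha than of beta clonotypes was thus listed in each of the 4 tdLNs. In the class of 100 or more UMIs the order was reversed in each of them, with 22.8% of alpha and 33.3% of beta clonotypes in the control IgG tdLN. By tumor UMIs over all sizes, the control IgG tdLN also listed less of the alpha chain (27.4%) than of the beta chain (34.0%). The contrast between the control IgG tdLN and the others was again largest in the class of 100 or more UMIs.

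The beta chain with the most UMIs in the tumor, TB1 with Trbv5 and Trbj1-2, had 11032 UMIs there and 56 in the tdLN, where it held rank 11. Its share of TRBC UMIs was 236-fold higher in the tumor (181 to 312), and none of the other 10 libraries, the control IgG spleen included, listed it. TB2, with Trbv19 and Trbj2-1 and next in the tumor with 4434 UMIs, had 2 UMIs in the tdLN. The same clonotype had 1 UMI in the αCSF1R tdLN and 1 in the BF10 tumor. TB3, also with Trbv19, had 2789 tumor UMIs and 9 in the tdLN at rank 432, and no other library listed it.

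Of the 10 TRBC clonotypes with the most tumor UMIs, 6 were listed in the tdLN, and each of the other tdLNs listed 2. Of these 6, 4 were in no other tdLN and 2 were also in another tdLN. TB8 with Trbv13-1 (1404 tumor UMIs) had 7 UMIs in the tdLN and TB10 with Trbv12-1 (1211) had 3, and both were found in the 2 control IgG libraries alone. Clonotypes of like size were missing from the tdLN. TB4 with Trbv12-1 had 1950 UMIs in the tumor, TB7 with Trbv26 had 1563 and TB9 with Trbv13-2 had 1341, and none of these 3 was listed in any other library. The remaining unlisted one, with 1843 tumor UMIs, had 5 UMIs in the IL-10-Fc tdLN and 1 in the BF10 tdLN. Against 3 UMIs, the upper limit that a count of 0 allows, the shares of TB4, TB7 and TB9 in the tumor were at least 778-fold, 623-fold and 535-fold higher than in the tdLN. The tdLN UMIs for each 1000 tumor UMIs ranged from 0 to 5.08 over the 8 printed clonotypes, so the tumor count did not set the tdLN count in a fixed ratio.

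In the class of 100 or more tumor UMIs, the 26 shared TRBC clonotypes held 29.9% of the tumor's TRBC UMIs and the 52 unshared ones 20.4%. The shared ones had 1 to 56 UMIs in the tdLN, with a median of 3, and 10 of them had a rank of 1000 or higher up there. Their shares in the tumor were 23.8-fold to 2653-fold those in the tdLN, with a median of 148-fold. The highest value is that of TB2 and rests on 2 tdLN UMIs (734 to 21912). For the 52 that were not listed, the bounds ran from at least 40.7-fold to at least 778-fold. The class was chosen by tumor UMIs, and an equal share in the tdLN would have needed at least 122 UMIs there, so the direction of these ratios largely follows from the choice. The median of 3 tdLN UMIs is close to the detection limit. Over the class, 26 of 78 were shared. By V region, 4 of 5 large clonotypes with Trbv12-1 and 5 of 10 with Trbv17 were shared. The counts were 1 of 9 with Trbv26 and 1 of 7 with Trbv13-2. Some others lay between, such as Trbv16 with 3 of 6 and Trbv19 with 2 of 8. Over all sizes Trbv12-1 was not higher among shared clonotypes (-0.509 points).

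**Figure D2:**
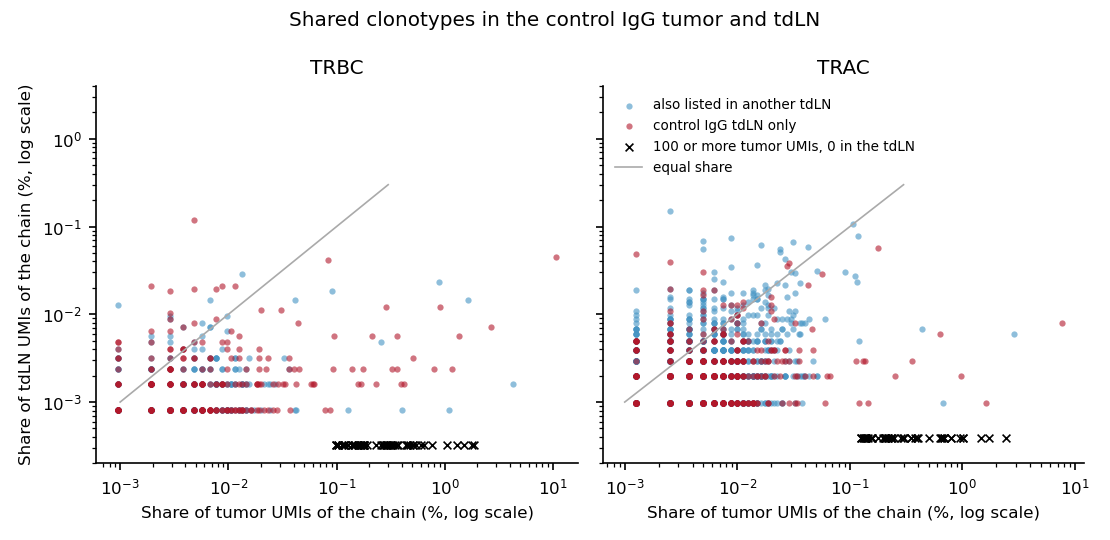
Each point is a clonotype listed in both control IgG libraries, with its share of the tumor's UMIs of the chain on the horizontal axis and its share of the tdLN's on the vertical axis (percent, log scales). Crosses at the foot are clonotypes with 100 or more tumor UMIs and 0 in the tdLN (52 for TRBC, 44 for TRAC), drawn below the share of 1 UMI. The large TRBC clonotypes lie far to the right of the line of equal shares, and most of them are red, the colour for clonotypes that no other tdLN lists.

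Seen from the tdLN, the 490 shared TRBC clonotypes held 1749 UMIs, or 1.40% of its TRBC UMIs. Of these clonotypes 199 (40.6%) had a single tdLN UMI, against 56.2% of all tdLN clonotypes, and 29 had 10 or more. They filled 12 of the 100 highest ranks of the tdLN. A larger share in the tumor than in the tdLN was seen for 419 of the 490. The tumor library has fewer TRBC UMIs (104036 against 124488) and far fewer clonotypes (9466 against 71579). Even 1 UMI in each library gives a larger share in the tumor, so this count follows in part from the sizes of the libraries. The TRBC clonotype at rank 1 of the tdLN, NB1 with Trbv17 and Trbj2-7, had 147 UMIs there and 5 in the tumor, so its share was lower in the tumor (0.0407 of that in the tdLN, 0.0130 to 0.0972). NB2 with Trbv13-3 and Trbj2-4 was nearly even, with 52 UMIs in the tdLN (rank 12.5, a tie) and 86 in the tumor, and 6 in the control IgG spleen. The largest tdLN clonotypes and the largest tumor clonotypes were thus mostly different ones, with TB1 near the top of both.

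The leading alpha chain of the tumor, TA1 with Trav9n-3 and Traj9, had 6151 UMIs in the tumor and 8 in the tdLN (rank 825), a 977-fold difference in share (496 to 2265), and was in no other library. TA2 with Trav5d-4 and Traj53 had 2296 and 6 UMIs. Its CDR3 holds no base beyond the germline V and J, and 7 libraries listed it, among them the IL-10-Fc tumor with 151 UMIs. TA3 with Trav6-4 and Traj23 had 1967 UMIs and was in the tumor alone, at least 833-fold above the tdLN. Of the 10 leading TRAC clonotypes, 4 were listed in the tdLN, against 1, 0 and 0 in the IL-10-Fc, αCSF1R and BF10 tdLNs.

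The shared alpha chains that stood highest in the tdLN were of another kind. A clonotype of the invariant alpha chain of NKT cells, with Trav11 or Trav11d and Traj18, was the highest at 151 tdLN UMIs (rank 3) and had 2 in the tumor. A Traj22 CDR3 joined without added bases had 108 tdLN UMIs and 86 tumor UMIs under Trav14-2 or Trav14n-2, and 79 and 95 under Trav14d-3-dv8 or Trav14n-3, and both were listed in all 12 libraries. The V regions of these duplicated genes could not be told apart by the assignment, and 25.9% of tumor TRAC clonotypes carry such a double name. Clonotypes with a Trav11 family gene and Traj18 were also summed by V and J alone, whatever their CDR3. They made up 0.114% of TRAC UMIs in the tumor (0.0928% to 0.140%) and 0.571% in the tdLN (0.526% to 0.619%). Not all of them need carry the invariant CDR3 of NKT cells. Clonotypes with Trav1 and Traj33, the regions of the MAIT cell alpha chain, were likewise taken by V and J alone. They made up 0.0817% in the tdLN and had 1 UMI in the tumor.

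The same CDR3 amino acids can be made by different bases, and more such nucleotide versions in the tumor went with a listing in the tdLN. TRBC amino acid sequences (with V and J) made by 1 nucleotide version in the tumor were listed in the tdLN, by any version, in 12.8% of 8561 cases. Those made by 2 versions were listed in 30.4% of 293 cases, and those made by 3 or more in 50% of 72 (38.7% to 61.3%). For TRAC the shares were 19.3%, 43.4% and 57.6%. Versions 1 base from a far larger one are counted here as they are listed.

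Shared tumor clonotypes had shorter CDR3s than unshared ones. For TRBC the mean was 13.3 residues over 490 shared clonotypes (SD 1.31) and 14 over 8976 unshared ones (SD 3.53), with medians of 13 and 14, a difference of -0.675 residues (SE 0.0701, interval -0.813 to -0.538). CDR3s of 12 residues or fewer made up 23.9% of the shared and 16.3% of the unshared, and those of 15 or more made up 16.3% and 33.1%. For TRAC the means were 13.4 (SD 1.14, 1193 clonotypes) and 13.7 (SD 1.47, 8275), a difference of -0.308 (SE 0.0369, -0.380 to -0.236). These errors are over clonotypes of a single pooled library and not over mice. The SD of the unshared TRBC clonotypes is widened by 13 CDR3s of more than 25 residues, the longest of 113, and without them the difference was -0.562.

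Over all sizes, the bases between V and J differed more than the length did. TRBC junctions held 7.65 bases on average in shared clonotypes (SD 4.06) and 10.9 in unshared ones (SD 5.02). TRAC junctions held 1.98 (SD 2.20) and 5.01 (SD 5.42), and 30.8% of shared TRAC clonotypes had none, against 7.72% of unshared ones. Among TRAC clonotypes with a single tumor UMI the means were 2.21 and 8.91. With 100 or more UMIs the means stood in the other order, with 4.62 (SD 3.43) in 13 shared and 3.43 (SD 2.50) in 44 unshared TRAC clonotypes. No interval was computed for this difference, which is smaller than either SD. For TRBC that class held 8.5 and 9.96. Any base after the first mismatch to the germline counts as junction, so a sequence error within V or J would lengthen it. V and J bases could be placed on the germline for 97.4% of shared and 91.6% of unshared TRAC clonotypes and for over 99% of TRBC clonotypes.

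The shortest CDR3s belonged to clonotypes that tdLNs of other mice listed too. TRBC clonotypes in the control IgG tdLN and another tdLN (248) averaged 13.1 residues and 5.88 junction bases, those in the control IgG tdLN alone (242) averaged 13.6 and 9.47, and those in no tdLN (8137) averaged 14.1 and 11.3. The control IgG tdLN alone and no tdLN differed by -0.474 residues (-0.667 to -0.282). Clonotypes that only other tdLNs listed (839) had 13.3 residues and 7.22 junction bases. In the class of 100 or more UMIs, shared TRBC clonotypes averaged 13.5 residues (n = 26) and unshared ones 13.7 (n = 52), a difference of -0.231 whose interval of -1.04 to 0.575 holds 0. For TRAC the difference in that class was -0.0997 (-0.955 to 0.756). Within the 26 shared large TRBC clonotypes, the 7 that another tdLN listed too averaged 12.3 residues and the 19 in the control IgG tdLN alone 13.9, a difference of -1.61 (-3.03 to -0.188). This interval makes no allowance for the small number of clonotypes, so it is too narrow to show that the difference is not 0. The 7 are also not independent, since those at tumor ranks 6 and 14 carry the same V, J and 11 residues.

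**Figure D3:**
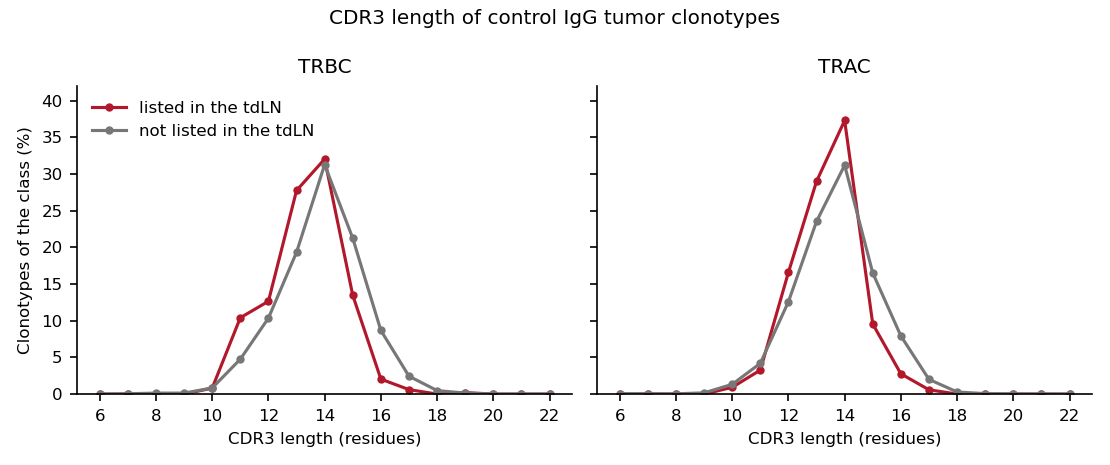
Lines give the percent of clonotypes of each class at each CDR3 length in residues, for tumor clonotypes listed in the control IgG tdLN (red) and not listed there (grey), TRBC on the left and TRAC on the right. The red line lies to the left of the grey one above 14 residues in both chains, with 16.3% of shared and 33.1% of unshared TRBC clonotypes at 15 residues or more.

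V region use of shared and unshared TRBC clonotypes was close. Of 19 V regions with at least 1% of tumor TRBC clonotypes, 17 had an interval of the difference that holds 0. Trbv16 (chr6:41151740-41152230) made up 16.3% of shared and 11.3% of unshared clonotypes, 5.01 percentage points more (1.92 to 8.60). Trbv14 (chr6:41135145-41135616) made up 2.24% and 4.41%, a difference of -2.17 points (-3.25 to -0.390). Trbv16 made up 14.5% of the clonotypes in the control IgG tdLN alone and 18.1% of those that another tdLN listed too, and 11.2% of all tdLN clonotypes. The interval held 0 with at least 2 UMIs in both libraries (3.45 points, -0.331 to 8.21), among clonotypes with a single UMI (1.19 points) and without clonotypes that another tdLN lists (3.14 points). Next in order above were Trbv13-2 (1.85 points) and Trbv29 (1.41), and below Trbv13-1 (-1.80) and Trbv19 (-1.70), each with 0 inside its interval. Trbv19 was lower by clonotypes, but 55.3% of its tumor UMIs were in shared clonotypes, among them TB2 and TB3.

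Of the 12 TRBC J regions, Trbj1-1 was higher among shared clonotypes (14.1% and 10.6%, 3.45 points, 0.577 to 6.87), and Trbj1-5 was lower (1.22% and 2.75%, -1.53 points, -2.28 to -0.0714). Trbj2-7 had as large a difference as Trbj1-1, 3.48 points, with an interval of -0.173 to 7.52, and with at least 2 UMIs in both libraries it stood at 7.76 points (2.66 to 13.5). Trbj2-2 followed at 0.686 points, and Trbj2-3 (-1.64) and Trbj1-4 (-1.48) stood at the other end, each with 0 inside its interval. With 12 to 35 regions compared for each chain and segment, some 95% intervals can be expected to miss 0 through counting alone.

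Intervals that miss 0 were more frequent in the alpha chain, where 1193 shared clonotypes against 490 for TRBC make intervals narrower. In points, V region differences ran from -1.14 to 4.28 for TRAC and from -2.17 to 5.01 for TRBC. Of 34 V regions, which cover 65.1% of tumor TRAC clonotypes, 9 were higher and 4 lower among the shared, and of 35 J regions 4 were higher and 6 lower. Trav14-2 or Trav14n-2 made up 6.62% of shared and 2.34% of unshared clonotypes (4.28 points, 2.95 to 5.86), Trav7d-2 6.04% and 2.11% (3.92 points) and Trav12n-3 5.36% and 3.26% (2.10 points). At the other end stood Trav16d-dv11 or Trav16n (-1.14 points), the group of Trav12 genes that the assignment could not place among Trav12-2, Trav12-3, Trav12d-1, Trav12d-2 and Trav12n-3 (-0.957), and Trav12d-1 (-0.776), all with intervals below 0. Among J regions, Traj12 made up 6.87% of shared and 2.85% of unshared clonotypes (4.02 points, 2.67 to 5.64), Traj30 was 3.32 points higher and Traj22, the J region of the alpha chains that all libraries list, 2.76. Traj42 (-1.36), Traj45 (-1.20) and Traj48 (-1.09) were lowest.

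Of the 9 V and 4 J regions of the alpha chain that were higher among shared clonotypes, 8 and 3 made up more of the clonotypes that other tdLNs listed too than of those in the control IgG tdLN alone. Trav14-2 or Trav14n-2 made up 7.90% of these and 4.17% of the clonotypes in the control IgG tdLN alone, Trav7d-2 7.77% and 2.70%, Traj12 8.28% and 4.17%, and Traj22 12.2% and 6.37%. Traj37 went the other way, with 3.18% and 6.86%, and Trav8-1 was even, with 2.42% and 2.45%. Of the Trav7d-2 clonotypes of the tumor 29.1% were listed in the tdLN, against 12.6% of all TRAC clonotypes.

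**Figure D4:**
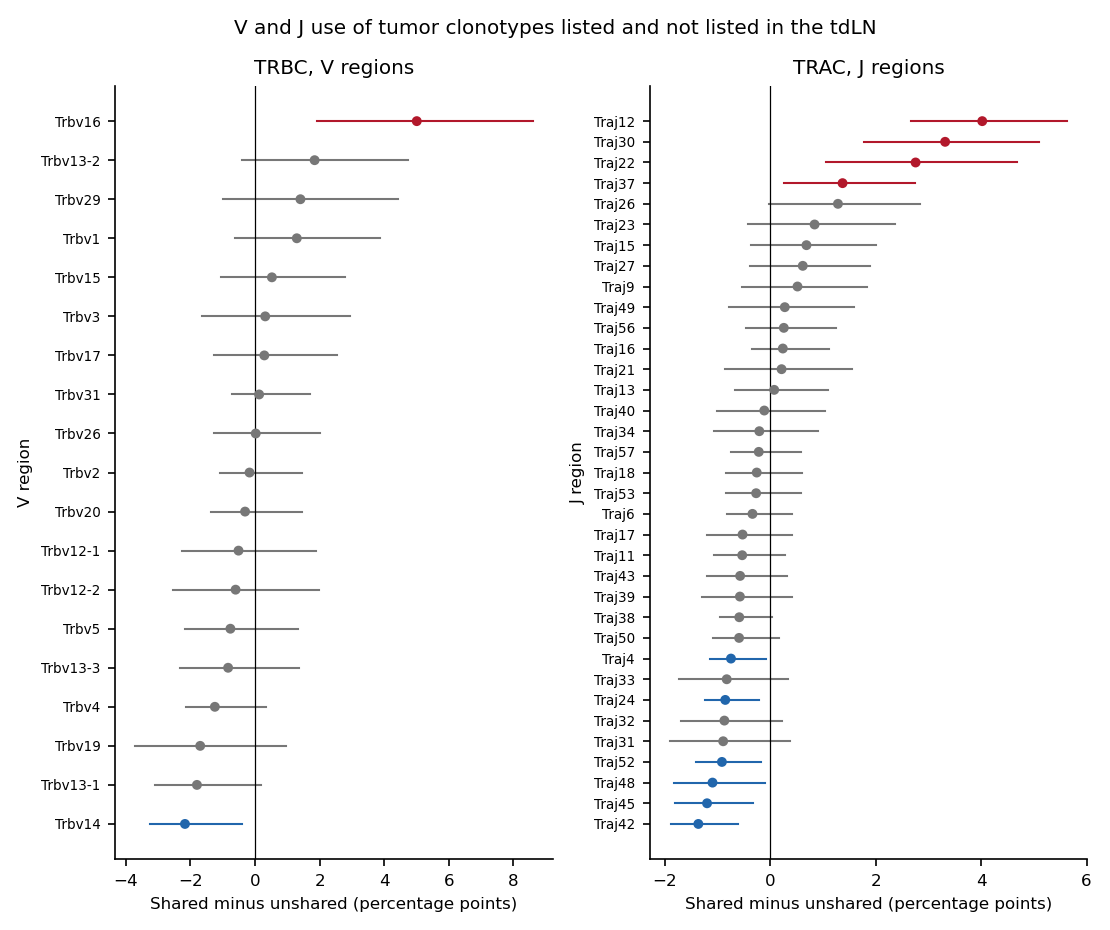
Points give the share of a region among shared tumor clonotypes minus its share among unshared ones, in percentage points with 95% intervals, for the 19 TRBC V regions (left) and the 35 TRAC J regions (right) with at least 1% of tumor clonotypes. Red intervals lie above 0 and blue ones below it. Trbv16 at 5.01 and Traj12 at 4.02 points lie highest.

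Gamma and delta chains were shared in a different way. Of 278 TRGC clonotypes of the tumor 82 (29.5%, 24.4% to 35.1%) were listed in the tdLN and hold 52.4% of its TRGC UMIs, but the other tdLNs listed 89, 93 and 88, and 76 of the 82 were in another tdLN too. The leading TRGC clonotype of the tumor, with Trgv2 and Trgj2, had 812 UMIs there and 8 in the tdLN. A germline-like gamma chain CDR3, which joins Trgj1 to Trgv5 in epidermal and to Trgv6 in other tissue-resident gamma delta T cells, divided by V region. With Trgv6 it made up 2.72% of TRGC UMIs in the tumor (2.35% to 3.14%) and 33.1% in the tdLN (32.0% to 34.1%). With Trgv5 it made up 10.5% (9.75% to 11.2%) and 0.440% (0.315% to 0.614%). Trgv2 in all made up 77.5% in the tumor and 29.7% in the tdLN.

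For the delta chain, 11 of 143 tumor clonotypes (7.69%) were listed in the tdLN, against 9.09%, 9.79% and 7.69% in the IL-10-Fc, αCSF1R and BF10 tdLNs. TD1, the invariant chain of Trdv4 and Trdj2 and the partner of both germline-like gamma chains, led both libraries, with 524 UMIs (31.7% of TRDC UMIs, 29.5% to 34.0%) in the tumor and 1359 (28.0%, 26.7% to 29.3%) in the tdLN. All 12 libraries listed it. The tumor and tdLN of control IgG mice thus differed 1.13-fold in the share of this delta chain (1.02 to 1.26) and far more in the gamma chain V regions.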

How the data were processed

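RNA of CD8+ T cells pooled from 3 mice per library (100 ng by the methods) was made into TCR libraries with a UMI kit and sequenced by the authors, whose vendor portal grouped reads by UMI and assigned V, J and CDR3. The germline reference and error correction behind these assignments are not given in the sources used here. The deposited counts are UMIs per clonotype with at least 3 reads (and up to at least 7), not normalized, and the deposited fraction divides them by the UMIs of the chain. The counts were used, and the fraction served as a check: recomputed from the counts, it deviated by at most 4.9e-13. The tumor library held 0 clonotypes out of frame, with a stop codon or with an undetermined residue.

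Shared means the same chain, V, J and CDR3 nucleotides listed in both libraries. Ranks follow UMIs, with ties at their mean rank. The upper limit that a count of 0 allows was taken as 3 UMIs of the chain, 0.00288% of TRBC UMIs in the tumor and 0.00241% in the tdLN. Shares have 95% Wilson intervals, differences of shares Newcombe intervals, ratios of shares exact binomial intervals, and mean lengths 1.96 SE. PCR copies are removed by UMIs, and intervals cover counting error only. Equal depth was computed as the expected listing in a subsample. Germline bases of V and J came from GENCODE vM21 transcripts of GRCm38, counted from either end of the CDR3 to the first mismatch.

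The named clonotypes are the 10 TRBC and TRAC clonotypes with the most tumor UMIs, the 5 shared ones of each chain with the most tdLN UMIs and the leading TRGC and TRDC ones, and the named regions are the 3 most over- and under-represented of each chain and segment. The gamma chain sets with Trgv5, Trgv6 and Trgv2 lie outside these lists and were chosen after seeing the data. The libraries, lists and rules were chosen with earlier results of these data known. Alternatives were UMIs with at least 7 reads, at least 2 UMIs, equal depth, other definitions of a clonotype and merging of CDR3s 1 base apart and at least 10-fold smaller. Subsampling, merging, the junction split and the Wilson interval were tested on simulated counts or sequences, and the other steps were not. The tools were numpy 2.4.6, scipy 1.17.1, pandas 2.3.3 and, for plots, matplotlib 3.10.9, in Python 3.11.15. Some of the named clonotypes are not reported here, and other experiments of the study are not analysed here.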

Additional observations from a re-analysis of the deposited data

How the results depend on the processing

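No paired analysis was possible because each group is 1 library. Of 53 results under an alternative, 21 stayed inside the interval of the value as reported, 32 moved outside it and 0 changed direction. A change of direction could be counted only for differences in CDR3 length and region use whose reported interval misses 0. Shares of clonotypes and UMIs cannot change sign, so the 0 says nothing about them. Shared clonotypes and UMIs were 5.18% and 34.0% for TRBC and 12.6% and 27.4% for TRAC. UMIs with at least 7 reads gave 3.86% and 31.5% for TRBC and 9.40% and 21.6% for TRAC, at least 2 UMIs in both libraries gave 3.59% and 31.5% and 11% and 23.3%, both of which remove UMIs. CDR3 nucleotides without V and J gave 6.93% and 35.3% and 24.5% and 39.5%, and amino acid sequences with V and J 13.7% and 41.8% and 20.5% and 34.2%, both wider definitions. Merging moved TRBC UMIs to 34.6%. Equal UMI totals moved TRBC UMIs to 33.3%, TRAC clonotypes to 11.8% and TRAC UMIs to 26.3%. Leaving out the largest tumor clonotype, chosen after seeing the data, gave 26.2% of TRBC and 21.4% of TRAC UMIs. The CDR3 length difference was -1.07 residues among TRBC clonotypes with a single UMI, and without shared clonotypes that another tdLN lists it was -0.401 for TRBC and -0.134 for TRAC. Differences in the use of Trbv16 (1.19 points), Trav14-2 or Trav14n-2 (2.75) and Traj12 (1.58) were smaller among clonotypes with a single UMI, with 0 inside the interval for Trbv16 and Traj12. Without shared clonotypes that another tdLN lists they were 1.82 for Trav14-2 or Trav14n-2 and 1.31 for Traj12, the latter with 0 inside its interval, as had Trbv16 (3.14, and 3.45 with at least 2 UMIs). Trbj2-7 rose to 7.76 points with at least 2 UMIs in both libraries, with an interval above 0. The other tdLNs listed 5.58% of TRBC clonotypes on average and 4.19% at equal depth, a setting added after seeing the data. Beyond the settings that remove UMIs or change the definition, the cause was not tested.

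Most shared clonotypes rest on 1 to 3 tdLN UMIs, so a tdLN clonotype below that depth is not detectable. Cells and TCR RNA per cell cannot be told apart, nor can the mice within a pool, and whether the same mice gave tumor and tdLN is not given in the sources used here.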

Other observations

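The control IgG spleen listed 504 TRBC clonotypes of the tumor (5.32%) with 153435 TRBC UMIs against 124488 in the tdLN, and they held 7.99% of the tumor's TRBC UMIs against 34.0% for the tdLN. Of the 78 TRBC clonotypes with 100 or more tumor UMIs the spleen listed 8 (10.3%, 5.29% to 19.0%) and the tdLN 26 (33.3%, 23.9% to 44.4%). For TRAC the spleen listed 9 of 57 (15.8%) and the tdLN 13 (22.8%), with overlapping intervals. Of the 490 TRBC clonotypes shared by tumor and tdLN, 138 were also in the spleen, and of the 1193 TRAC clonotypes 609 were. TB1, TB3, TB8 and TB10, all among the 10 leading beta chains, were in the tumor and the tdLN and not in the spleen. The leading alpha chain, TA1, was not in the spleen either.

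In the other direction, 12 of the 100 TRBC clonotypes with the most UMIs in the control IgG tdLN were listed in the control IgG tumor (12%, interval 7% to 19.8%). The IL-10-Fc and BF10 tumor libraries, which list 54779 and 90267 TRBC clonotypes against 9466, held 2 and 3 of these 100, and the αCSF1R tumor library held 1 with 2493 clonotypes listed. For TRAC, the control IgG tumor held 28 of the 100 highest of the tdLN with 9468 clonotypes listed, the IL-10-Fc tumor 29 with 38233, the BF10 tumor 32 with 55103 and the αCSF1R tumor 7 with 2430.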
